A study of Mus musculus with 6 samples.

Results

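The Fos and Jun AP-1 family was followed here through 6 genes of the mouse prefrontal cortex: Fos, Fosb and Fosl2 of the Fos type, and Jun, Junb and Jund of the Jun type. They were taken by gene symbol, all 6 were found among 54134 symbols, and all 6 were among the 18705 genes kept by the filter on low counts. Bulk RNA-seq was carried out on 6 libraries of the prefrontal cortex, 2 for each of 3 groups, from mice 6 to 8 weeks old. The first group was Shank3 +/∆C mice given GSK-LSD1, the second was Shank3 +/∆C mice given vehicle, and the third was wild-type mice, described as C57BL/6 x C3H, given vehicle. The mutants carry 1 allele of Shank3, a scaffold of the excitatory postsynapse, that lacks the C-terminal part. GSK-LSD1 inhibits the histone demethylase LSD1, the product of Kdm1a. The sources used here give no dose, route or sex, and no time between the last injection or handling and dissection. The design implies 3 comparisons: the mutation under vehicle, the inhibitor in mutants, and treated mutants against wild type. The second comparison shares its vehicle-treated mutants with the first, and the third shares groups with both.

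AP-1 is a dimer of basic leucine zipper proteins that binds short palindromic DNA sites. Fos-type proteins need a Jun-type partner to bind, whereas Jun-type proteins can also pair with each other. In cortical neurons Fos, Fosb and Junb are immediate early genes, switched on within minutes by synaptic activity and calcium entry through factors already bound at their promoters, and Jund is the member known for steady expression. Fosb also gives rise to the truncated and long-lived splice form ΔFosB, which a count per gene does not separate from full-length FosB.

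Promoter windows are shown first, because the windows taken for the members differ in the letters that CREB-type factors are known to bind. The 250 bases before the RefSeq gene start (GRCm38.p6) are given 5′ to 3′ on the strand of each gene: Fos at chr12:85473640-85473889 (plus strand), Fosb at chr7:19310046-19310295 (minus), Junb at chr8:84978749-84978998 (minus) and Jun at chr4:95052223-95052472 (minus). Capitals mark TGACG, the core of a cAMP response element, TGANNTCA, which covers the full element and the variant known from Jun, and TATAAA.
Fos: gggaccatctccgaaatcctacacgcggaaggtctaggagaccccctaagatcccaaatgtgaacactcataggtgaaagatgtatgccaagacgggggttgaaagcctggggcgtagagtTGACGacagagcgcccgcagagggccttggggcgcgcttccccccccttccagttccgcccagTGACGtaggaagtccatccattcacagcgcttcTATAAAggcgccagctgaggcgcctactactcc
Fosb: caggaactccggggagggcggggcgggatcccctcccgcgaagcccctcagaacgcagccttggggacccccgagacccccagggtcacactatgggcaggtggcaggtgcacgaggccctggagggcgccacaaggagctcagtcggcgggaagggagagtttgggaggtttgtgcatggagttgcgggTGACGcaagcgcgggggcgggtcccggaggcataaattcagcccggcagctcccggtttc
Junb: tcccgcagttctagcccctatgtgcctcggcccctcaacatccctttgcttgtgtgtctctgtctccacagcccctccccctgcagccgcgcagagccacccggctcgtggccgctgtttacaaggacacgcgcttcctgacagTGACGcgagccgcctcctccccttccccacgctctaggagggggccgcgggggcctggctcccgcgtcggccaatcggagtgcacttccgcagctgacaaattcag
Jun: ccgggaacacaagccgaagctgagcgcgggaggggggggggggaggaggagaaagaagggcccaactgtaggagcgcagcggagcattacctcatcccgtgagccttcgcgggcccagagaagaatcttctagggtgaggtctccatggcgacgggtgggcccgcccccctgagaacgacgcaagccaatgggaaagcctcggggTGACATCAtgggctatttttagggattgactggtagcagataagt
All 6 members had a RefSeq promoter. TGACG was found on either strand in Fos (2 matches, with first bases at -129 and -66 from the start), Fosb (1 match, from -60) and Junb (1 match, from -106), and not within the windows of Fosl2, Jun or Jund. Of 32851 mouse promoter windows of this length 17.8% held TGACG, 11.9% held TGANNTCA and 12.4% held TATAAA. TGANNTCA occurred in Jun from base -45 and in Jund from -61, and TATAAA in Fos from -33. The AP-1 site TGANTCA, held by 6.75% of all windows, and the CArG box bound by SRF, held by 1.47%, had no match in the 6 windows. The serum response element of Fos, which holds its CArG box, is known to lie farther upstream than the window reaches. For Jund the RefSeq start lies upstream of the start of the gene in GENCODE, and for Fosl2 it lies within the GENCODE gene, so these windows are not the sequence next to the annotated start. Smaller offsets occur on the minus strand. The Junb window ends at 84978749, upstream of the GENCODE start at 84978718. The Fosb window ends at 19310046, just within the GENCODE gene, which starts at 19310051. Positions are counted from the RefSeq start. These matches describe letters only.

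The libraries held 14133834 to 28646960 counted reads, and 3 counts, the floor of detection used here, correspond to 0.105 to 0.212 CPM, the reads of a gene per 1000000 reads counted. The libraries of a group are biological duplicates from separate mice by the study's description, and their counts differed beyond sampling error, with a chi-square of 9.94 to 13.3 for each degree of freedom. Markers of cortical excitatory neurons were present, with 0 of 11 at 0 counts and the most abundant, the vesicular glutamate transporter Slc17a7, at 1156 to 1923 CPM. Their summed level was 3770.2 and 3270.1 CPM with GSK-LSD1, 3671 and 3740.05 CPM in vehicle-treated mutants, and 4503 and 4269 CPM in wild type. The 12 oligodendrocyte markers summed to 2504 and 5873 CPM with GSK-LSD1, 6178 and 6230.5 CPM in vehicle-treated mutants, and 2711 and 2462 CPM in wild type. The 10 astrocyte markers summed to 5418 and 5488 CPM, 5443 and 5634 CPM, and 3993 and 4920.0 CPM in the same groups. In bulk tissue, fewer cells of a type and less RNA per cell cannot be told apart.

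Levels of the members are given as CPM after TMM scaling, which corrects the library totals for differences in composition, and as CPM per kb of exon where genes are compared with each other. Per kb, Junb had the highest mean level with GSK-LSD1 (40.0 ± 9.60 CPM per kb, SD, n = 2), and Jund had the highest in vehicle-treated mutants (20.4 ± 1.22) and in wild type (22.0 ± 1.11). Junb in wild type, at 21.6 ± 7.24 CPM per kb, did not differ from Jund beyond its spread. Jun followed at 19.0 ± 0.53, 15.9 ± 1.23 and 16.5 ± 0.75 CPM per kb with GSK-LSD1, in vehicle-treated mutants and in wild type, and Fos at 18.8 ± 5.68, 5.74 ± 0.95 and 9.06 ± 2.85. With GSK-LSD1 Jund, Jun and Fos overlapped within their spread. Fosl2 lay between 4.09 and 4.82 and Fosb between 1.05 and 2.06 CPM per kb as group means, so Fosb was the lowest member in each of the 3 groups.

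The 3 Jun-type genes made up most of the family's per-length level in each library, from 73.6% in GSK-LSD1 library 2 to 84.3% in the second vehicle-treated mutant library. Summed over the 6 genes, the level was 96.4 and 114.7 CPM per kb with GSK-LSD1, 62.3 and 61.8 in vehicle-treated mutants, and 70.5 and 80.6 in wild type. Both treated libraries lay above the other 4. Junb made up 34.4% and 40.8% of the sum with GSK-LSD1, 25.2% and 22.8% in vehicle-treated mutants, and 23.3% and 33.1% in wild type. Fos made up 15.4% and 19.9% with GSK-LSD1, against 10.3% and 8.20% in vehicle-treated mutants and 9.99% and 13.7% in wild type.

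**Figure D1:**
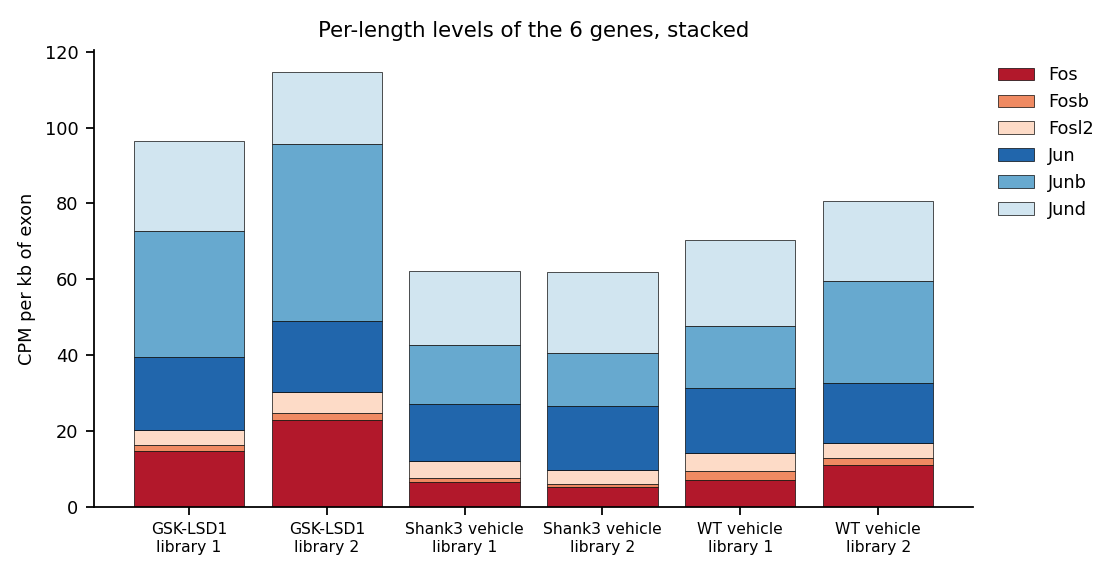
Stacked bars give the level of the 6 genes in CPM per kb of exon (vertical axis) in each of the 6 libraries (horizontal axis). The bars of the GSK-LSD1 libraries reach 96.4 and 114.7, and those of the other 4 libraries lie between 61.8 and 80.6.

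Fos, the founding member of the family and a standard marker of recently active neurons, lies on chromosome 12 from 85473890 to 85477273 (plus strand, GRCm38, 4 merged exons). It was counted at 34.9 and 53.8 CPM with GSK-LSD1, 15.1 and 11.9 CPM in vehicle-treated mutants, and 16.6 and 26.1 CPM in wild type. Both treated libraries stood above the other 4, and both vehicle-treated mutant libraries stood below wild type. The highest library held 4.51 times the level of the lowest, the widest span in the family.

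Fosb, on chromosome 7 from 19302696 to 19310051 (minus strand), had 8.73 and 11.2 CPM with GSK-LSD1, 6.99 and 6.17 CPM in vehicle-treated mutants, and 14.2 and 11.5 CPM in wild type. Both vehicle-treated mutant libraries were lowest. The wild-type libraries were highest, but wild-type library 2 (11.49 CPM) was nearly level with GSK-LSD1 library 2 (11.24 CPM). That margin is smaller than the difference within either group. For Fos, in contrast, both treated libraries were highest.

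Fosl2 encodes Fra-2, a Fos-type protein that lacks the strong activation domain of Fos, and lies on chromosome 5 from 32135801 to 32157842 (plus strand). Its levels were 38.2 and 55.0 CPM with GSK-LSD1, 43.8 and 35.5 CPM in vehicle-treated mutants, and 47.1 and 37.0 CPM in wild type. All 3 groups overlapped.

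Junb, on chromosome 8 from 84974484 to 84978718 (minus strand), encodes a Jun-type protein that activates weakly and can oppose Jun. It was counted at 76.4 and 107.6 CPM with GSK-LSD1, 36.1 and 32.5 CPM in vehicle-treated mutants, and 37.9 and 61.4 CPM in wild type. Its 6 libraries ranked in the same order as those of Fos, from GSK-LSD1 library 2 at the top to vehicle-treated mutant library 2 at the bottom, a span of 3.31 times.

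Jun, the partner most often found with Fos, has a single exon on chromosome 4 from 95049034 to 95052222 (minus strand). It had 61.8 and 59.4 CPM with GSK-LSD1, 47.8 and 53.3 CPM in vehicle-treated mutants, and 54.4 and 51.0 CPM in wild type, so the treated libraries were highest by a small margin. Jund, a single-exon gene on chromosome 8 from 70698949 to 70700616 (plus strand), had 39.4 and 31.7 CPM with GSK-LSD1, 32.6 and 35.5 CPM in vehicle-treated mutants, and 38.0 and 35.4 CPM in wild type. The groups of Jund overlapped, and its highest library held 1.24 times the lowest, the narrowest span in the family.

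Genes on the opposite strand overlap 3 members, and the sources used here do not say whether the authors' counting used strand. Junos shares 7.28% of the exonic bases of Jun and had 11 to 25 counts per library, Gm11175 shares 52.6% of Jund and had 0 counts, and Prdx2 shares 7.52% of Junb and had 1847 to 3970 counts. Reads from the shared bases of Prdx2 and Junb, which are both abundant, could have been assigned to either or to neither. If counting ignored strand, reads over the shared bases of Jund could also have gone to neither gene, with Gm11175 still at 0 counts. The level of Jund per kb and its share of the family could then be too low. This was not tested.

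**Figure D2:**
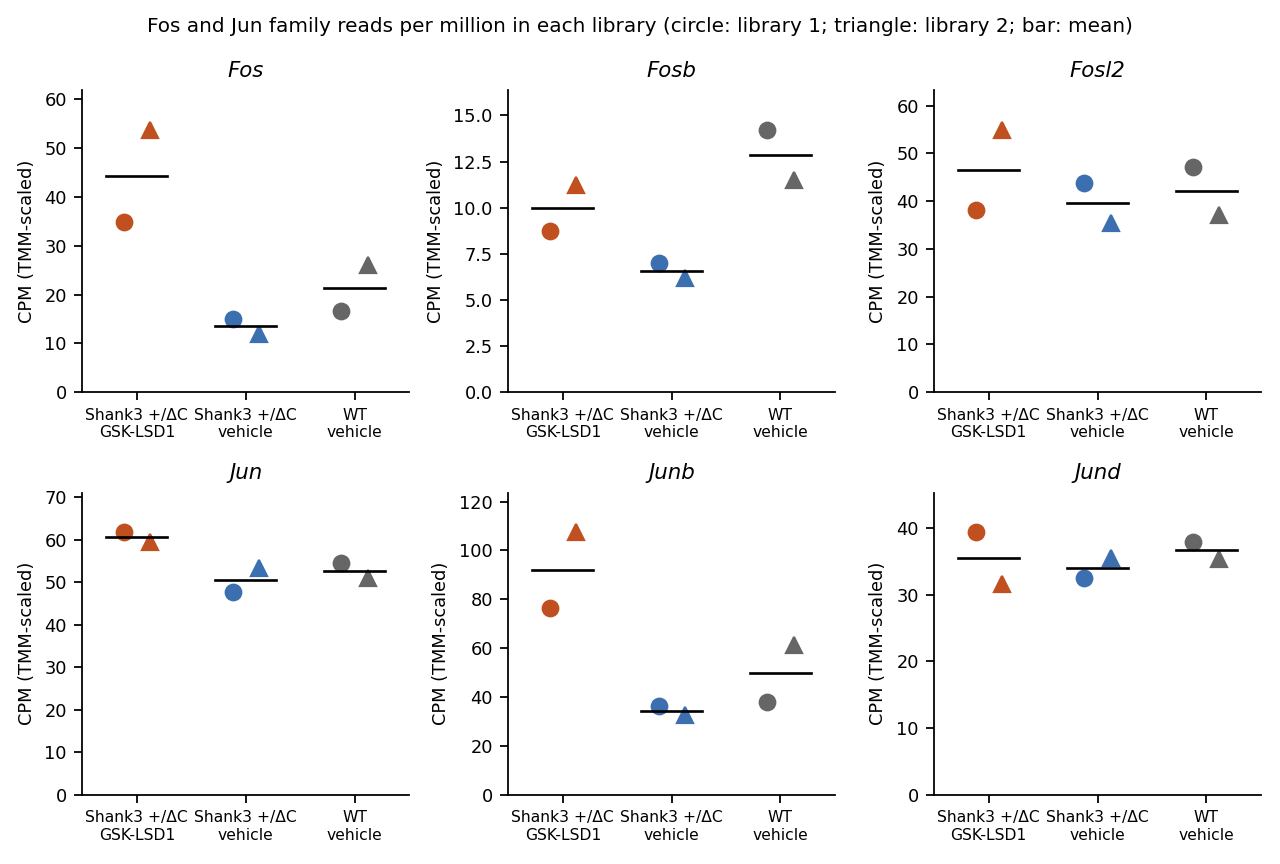
Each panel shows a member in CPM (vertical axis, from 0) for the 3 groups (horizontal axis), with a circle for library 1, a triangle for library 2 and a bar at the mean. Fos and Junb stand apart in both GSK-LSD1 libraries, Fosb is lowest in both vehicle-treated mutant libraries (6.99 and 6.17 CPM), and Fosl2 and Jund overlap in all groups.

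Libraries of a group differed unequally across the members. In wild type, library 2 held 1.57 times the Fos level of library 1 (95% exact interval from counting alone 1.36 to 1.83) and 1.62 times its Junb level (1.47 to 1.79). Between the GSK-LSD1 libraries the ratio of library 2 to library 1 was 1.54 for Fos (1.40 to 1.70), 1.44 for Fosl2 (1.31 to 1.58) and 1.41 for Junb (1.32 to 1.51). These intervals exclude 1, so the differences within a group were larger than counting error. For Fosb the ratio was 1.29 with GSK-LSD1 (1.04 to 1.59) and 0.88 in vehicle-treated mutants (0.70 to 1.12). In wild type it was 0.81 for Fosb (0.68 to 0.97) and 0.79 for Fosl2 (0.71 to 0.87), opposite in direction to Fos and Junb. In vehicle-treated mutants library 2 held 0.79 times the Fos level of library 1 (0.67 to 0.93), 0.81 times that of Fosl2 (0.74 to 0.89) and 0.90 times that of Junb (0.81 to 0.996). For Jun the ratio was 0.96 with GSK-LSD1 (0.88 to 1.05) and 0.94 in wild type (0.86 to 1.02). In vehicle-treated mutants it was 1.12 for Jun (1.03 to 1.21), beyond counting error. For Jund the ratio was 0.80 with GSK-LSD1 (0.72 to 0.90), also beyond counting error. It was 1.09 for Jund in vehicle-treated mutants (0.98 to 1.21) and 0.93 in wild type (0.84 to 1.04). Over all tested genes the median difference within a group was 1.14-fold with GSK-LSD1, 1.12-fold in vehicle-treated mutants and 1.13-fold in wild type.

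In Shank3 +/∆C mice given vehicle, Fosb fell relative to wild type and was the only member to pass the test. It averaged 6.58 ± 0.58 CPM in the mutants and 12.9 ± 1.94 CPM in wild type (SD, n = 2 each), a log2 fold change of -0.96 ± 0.20 (SE; edgeR quasi-likelihood test, adjusted p = 0.0302). Its 95% interval ran from -1.38 to -0.54, a level of 0.38 to 0.69 times that of wild type. Fos averaged 13.5 ± 2.23 CPM in the mutants and 21.3 ± 6.71 CPM in wild type (-0.68 ± 0.30, edgeR adjusted p = 0.394), and Junb 34.3 ± 2.59 CPM in the mutants and 49.6 ± 16.7 CPM in wild type (-0.55 ± 0.29, edgeR adjusted p = 0.495). Both had non-overlapping libraries, and their 95% intervals ran from -1.41 to 0.05 for Fos and from -1.28 to 0.19 for Junb.

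The other members gave narrower intervals around 0 in the same comparison. They were -0.29 to 0.17 for Jun, -0.37 to 0.16 for Jund and -0.50 to 0.34 for Fosl2 on the log2 scale. Of the 6 members 0 rose, 1 fell and 5 did not pass, where 0.994% of all tested genes fell and 1.27% passed in either direction. The median log2 fold change of the 6 was -0.33, and that of all genes tested was 0.016. Libraries of Fos, Fosb and Junb were lower in mutants without overlap, which held for 23.1% of all tested genes. Summed oligodendrocyte and astrocyte markers were higher and summed excitatory neuron markers lower in both mutant libraries than in both wild-type libraries, by the values above, and their part in the Fosb result was not tested.

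The Fosb call was lost when library 1 of the mutants (log2 fold change -1.06, edgeR adjusted p = 0.101), library 2 of the mutants (-0.87, 0.20) or library 1 of wild type (-0.81, 0.470) was left out. It was also lost with library size scaling (edgeR adjusted p = 0.0749), by limma-voom (0.0511) and in an edgeR fit without the robust option (0.0605). DESeq2 gave Fosb a log2 fold change of -0.97 with an unadjusted p of 9.51e-05 and no adjusted p. The call was therefore neither kept nor lost by DESeq2. Over all genes 52 rose and 186 fell, and this split was 15 and 20 with library size scaling, 45 and 96 with upper quartile scaling, and 52 and 84 with an offset for GC content and length.

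With GSK-LSD1, Fos and Junb stood far above the vehicle-treated mutants in both libraries, without passing the test over all genes. Fos averaged 44.3 ± 13.4 CPM in treated mutants and 13.5 ± 2.23 CPM in those given vehicle, a ratio of 3.28 (log2 fold change 1.71 ± 0.30, 95% interval 0.98 to 2.43, edgeR adjusted p = 0.296). Junb averaged 92.0 ± 22.1 CPM in treated mutants and 34.3 ± 2.59 CPM in those given vehicle, a ratio of 2.68 (1.42 ± 0.29, interval 0.68 to 2.15, edgeR adjusted p = 0.502). Among 18705 genes the log2 fold changes of Fos and Junb lay at the 99.7th and 99.5th percentile.

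Fosb and Jun were displaced less in the same comparison. Fosb averaged 9.99 ± 1.77 CPM with GSK-LSD1 and 6.58 ± 0.58 CPM with vehicle (0.59 ± 0.20, edgeR adjusted p = 0.657). Jun averaged 60.6 ± 1.70 CPM with GSK-LSD1 and 50.6 ± 3.91 CPM with vehicle (0.26 ± 0.11, edgeR adjusted p = 0.812). For Fosl2 and Jund the intervals were -0.20 to 0.65 and -0.20 to 0.34 on the log2 scale. Of the 6 members 0 passed edgeR's test, 4 were higher at an unadjusted p under 0.05, 2 passed by DESeq2 and 2 by limma-voom. Over all genes 0.107% passed edgeR's test, and 3.18% were higher at an unadjusted p under 0.05. DESeq2 called 35 genes in all and limma-voom 16. The libraries of Fos, Fosb, Jun and Junb were higher with GSK-LSD1 without overlap, which held for 17.0% of all tested genes. The median log2 fold change of the 6 members was 0.43, and that of all tested genes was -0.0007.

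**Figure D3:**
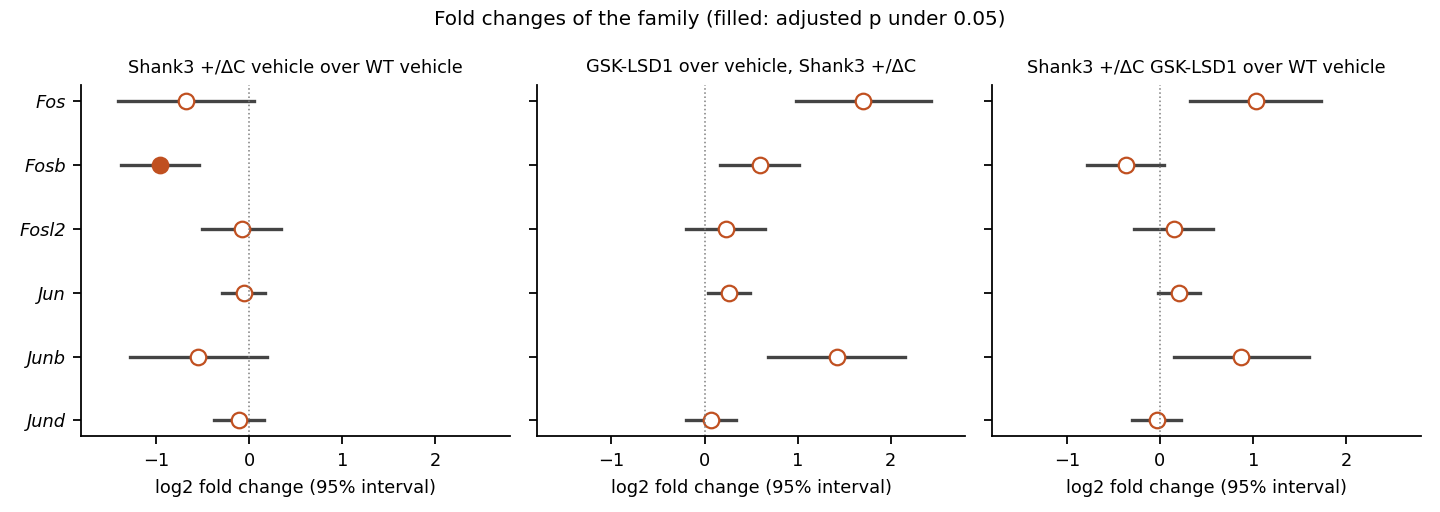
Points give log2 fold changes of the 6 members (vertical axis) in the 3 comparisons (panels), lines give 95% intervals from edgeR, and filled points mark an adjusted p under 0.05. Only Fosb in the first panel is filled, at -0.96, and the widest intervals belong to Fos and Junb.

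Whether Fos and Junb passed depended on how the spread of single genes was estimated. In the robust fit they were given 3.17 and 2.01 prior degrees of freedom, against 14.7 for Fosb, Jun, Jund and the median gene, which widens their tests. In the fit without the robust option the fold changes were the same and both passed (adjusted p = 0.0134 for Fos and 0.0167 for Junb), as they did by DESeq2 (8.32e-10 and 0.0165) and by limma-voom (0.0148 and 0.0148). Fos passed with either GSK-LSD1 library left out (edgeR adjusted p = 0.00174 without library 1 and 0.0102 without library 2), at log2 fold changes of 1.99 and 1.37. In these fits 1 library stands for the treated group and is assumed to vary like the other groups, so they do not include the spread between the treated libraries. Without wild-type library 1 or 2 the log2 fold changes stayed at 1.71 for Fos and 1.42 for Junb. Wild type is not part of this comparison. Leaving out 1 of its libraries takes the spread between them out of the estimate, so these fits add no support. With a vehicle-treated mutant library left out neither passed. Fos was then at 1.89 without library 1 (edgeR adjusted p = 0.681) and 1.54 without library 2 (1.00), and Junb had an edgeR adjusted p of 0.814 and 1.00. Junb also did not pass without GSK-LSD1 library 1 (1.65, 0.141) or library 2 (1.16, 0.226).

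**Figure D4:**
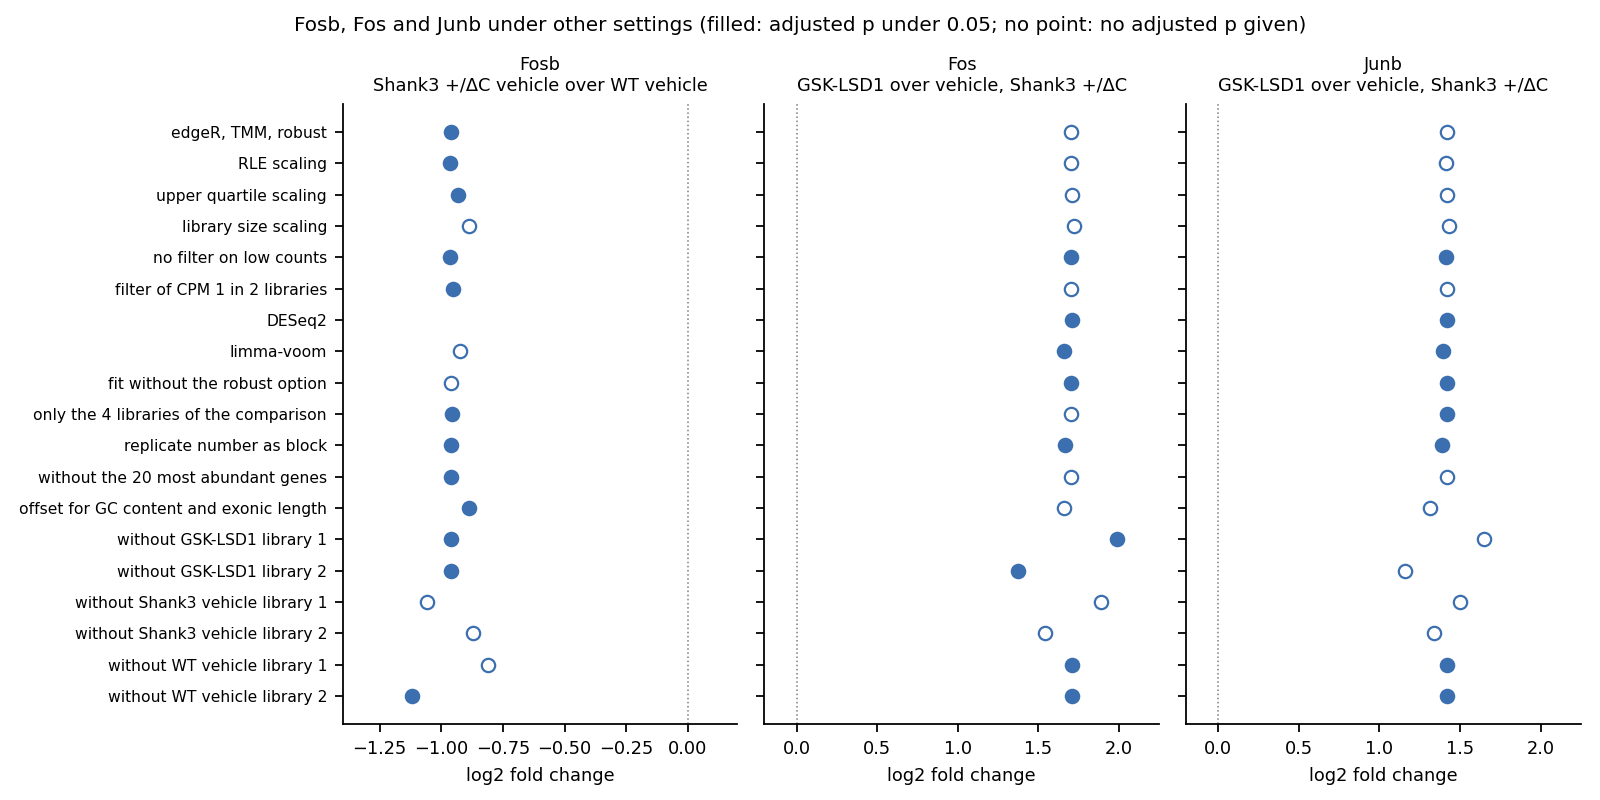
Log2 fold changes (horizontal axes) of Fosb for the mutation, and of Fos and Junb for GSK-LSD1, are drawn for the edgeR fit described here and each alternative (vertical axis). Filled points mark an adjusted p under 0.05, and no point is drawn where DESeq2 gave Fosb no adjusted p. Fos ranges from 1.37 to 1.99 and Junb from 1.16 to 1.65.

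Marker sums of some lists differed between the GSK-LSD1 and vehicle libraries. For oligodendrocytes the difference lay mainly in GSK-LSD1 library 1, and for the hypothalamus, septum and preoptic list in GSK-LSD1 library 2. The oligodendrocyte sum was 2504 CPM in GSK-LSD1 library 1 and 5873 CPM in library 2, against 6178 and 6230.5 CPM with vehicle. Fos stood at 34.9 CPM in library 1 and 53.8 CPM in library 2 and Junb at 76.4 and 107.6 CPM, against 15.1 and 11.9 CPM of Fos and 36.1 and 32.5 CPM of Junb with vehicle. The 10 endothelium and pericyte markers summed to 305.9 and 280.7 CPM with GSK-LSD1 and 323.9 and 380.7 CPM with vehicle. Their median log2 fold change was -0.23, and 4 were lower at an unadjusted p under 0.05, as were 2.52% of all tested genes. The 5 erythrocyte markers summed to 25.4 and 41.7 CPM with GSK-LSD1, 83.7 and 178.6 CPM in vehicle-treated mutants, and 251.3 and 104.5 CPM in wild type. The 15 hypothalamus, septum and preoptic markers, of which 0 were at 0 counts in every library and 4 were abundant enough to test, summed to 22.3 and 63.4 CPM with GSK-LSD1, 17.7 and 30.3 CPM with vehicle, and 17.3 and 17.3 CPM in wild type. The most abundant of them was Zic1, at 11.1 to 49.3 CPM. The part of these lists in the levels of Fos and Junb was not tested.

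Treated mutants were also set against wild type. Fos averaged 44.3 ± 13.4 CPM in treated mutants and 21.3 ± 6.71 CPM in wild type, a ratio of 2.08 (log2 fold change 1.03 ± 0.29, interval 0.33 to 1.73, edgeR adjusted p = 0.159). Junb averaged 92.0 ± 22.1 CPM in treated mutants and 49.6 ± 16.7 CPM in wild type, a ratio of 1.85 (0.87 ± 0.28, interval 0.15 to 1.60, edgeR adjusted p = 0.240). Fosb pointed the other way, at 9.99 ± 1.77 CPM in treated mutants and 12.9 ± 1.94 CPM in wild type (-0.37 ± 0.20, interval -0.78 to 0.05, edgeR adjusted p = 0.391). Jun stood at 0.20 ± 0.11 (edgeR adjusted p = 0.385), and the intervals of Fosl2 and Jund were -0.28 to 0.57 and -0.31 to 0.23.

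Of the 6 members 0 passed edgeR's test against wild type, 2 were higher at an unadjusted p under 0.05 (7.11% of all tested genes), 1 passed by DESeq2 and 2 by limma-voom. Over all genes 2.62% passed edgeR's test, made up of 0.636% that rose and 1.99% that fell. DESeq2 called 782 genes in all and limma-voom 390. Libraries of Fos, Jun and Junb were higher without overlap, which held for 23.5% of all tested genes, and those of Fosb were lower without overlap, which held for 22.4%. The split of 119 higher and 372 lower genes was 111 and 142 with library size scaling. The median of the members was 0.18, beside 0.018 for all tested genes. Without GSK-LSD1 library 1 the log2 fold change of Fos was 1.31. Without wild-type library 2, in which both genes were higher than in library 1, it was 1.41 for Fos and 1.27 for Junb. In these fits 1 library stands for a group, so the spread between its libraries is not included.

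The profiles of the members over the 6 libraries were compared by the root mean square difference of centred log2 CPM. Fos and Junb were the closest pair of members at 0.1327, Jun and Jund came next at 0.1335, and Fos and Jund were the farthest at 0.77. The measure is not scaled for the size of change, so flat genes lie close to each other. Jun and Jund spanned only 1.29 and 1.24 times. Their libraries also ranked differently, with GSK-LSD1 library 2 lowest for Jund but above all vehicle libraries for Jun. The libraries of Fos and Junb ranked alike. Outside the family the gene closest to both Fos and Junb, among 12988 genes with a mean of at least 1 CPM that are not predicted genes or pseudogenes, was Btg2, an antiproliferative immediate early gene, at differences of 0.20 and 0.083. Btg2 was counted at 31.8 and 41.4 CPM with GSK-LSD1, 13.9 and 14.5 CPM in vehicle-treated mutants, and 14.6 and 26.1 CPM in wild type. Next came the nuclear receptor Nr4a1 for both (0.24 for Fos and 0.18 for Junb), the small GTPase Gem for Fos (0.24) and the MAP kinase phosphatase Dusp1 for Junb (0.19).

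Fosb had other neighbours. AU022754 (0.10), the mu opioid receptor Oprm1 (0.13) and the TNF receptor family member Tnfrsf8 (0.13) were closest to it, none of which is among the nearest genes of Fos or Junb. For the flatter members the nearest were Pthlh, Bbc3 and Ehhadh for Fosl2 (0.041 to 0.056), Rabep2, Hgh1 and Kcns1 for Jun (0.029 to 0.036) and Tmem222, Fbxl6 and Ece1 for Jund (0.029 to 0.031). These distances describe 6 libraries and were not tested.

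Other immediate early genes, a list of 30 that were all tested, gave 2 higher, 0 lower and 28 not passing with GSK-LSD1 against vehicle in mutants, with a median log2 fold change of 0.50. Over all tested genes 0.102% rose in this comparison. Egr2, a zinc finger factor, averaged 15.5 ± 4.18 CPM in treated mutants and 2.99 ± 0.20 CPM in those given vehicle (2.36 ± 0.24, edgeR adjusted p = 0.000107), and Egr4 28.2 ± 4.98 CPM in treated mutants and 15.1 ± 0.99 CPM in those given vehicle (0.89 ± 0.15, edgeR adjusted p = 0.0238). The clock gene Per1 (0.62 ± 0.13) and the kinase Sik1 (0.76 ± 0.18) came next in order of p and did not pass. Of the 30 genes 12 were higher at an unadjusted p under 0.05, these 4 among them, where 3.18% of all tested genes were, and 26 had positive values.

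For the mutation under vehicle the same list gave 4 lower, 0 higher and 26 not passing, with a median of -0.19, where 0.994% of all tested genes fell. Egr4 (-0.94 ± 0.15, edgeR adjusted p = 0.0117), Egr2 (-1.20 ± 0.25, 0.0302), the secreted pentraxin Nptx2 (-0.57 ± 0.12, 0.0302) and Per1 (-0.53 ± 0.13, 0.0485) fell. These genes were not followed under the other settings, where the 238 calls over all genes became 11 without the robust option. Against wild type, treated mutants had higher Egr2 (1.17 ± 0.23, edgeR adjusted p = 0.0133) and Sik1 (0.74 ± 0.18, 0.0347). Nptx2 was lower (-0.47 ± 0.12, 0.0479), and 27 of the 30 did not pass. Over all tested genes 0.636% rose and 1.99% fell in this comparison.

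**Figure D5:**
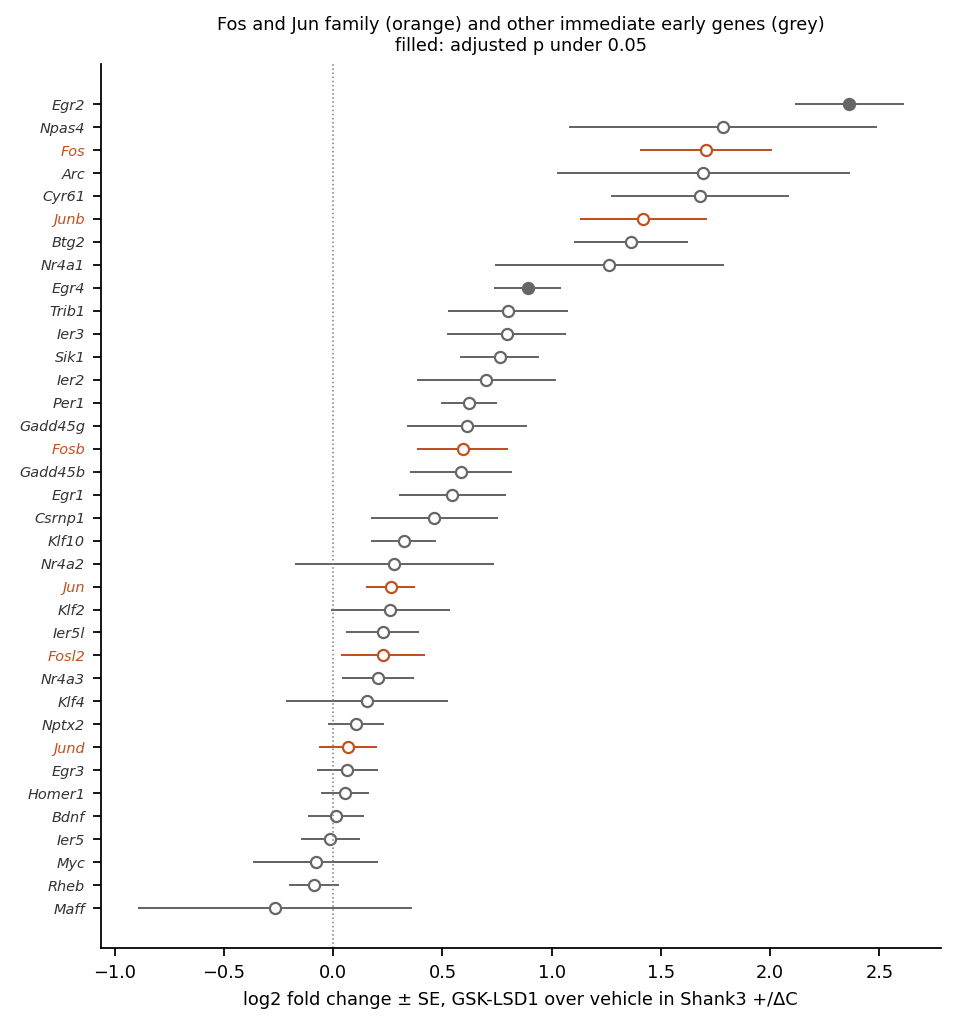
Points give the log2 fold change (horizontal axis) with its SE for GSK-LSD1 over vehicle in Shank3 +/∆C mice, for the 6 family members (orange) and 30 other immediate early genes (grey), sorted by value. Fos at 1.71 and Junb at 1.42 lie near the top with open points, and only Egr2 (2.36) and Egr4 (0.89) are filled.

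The genes that carry signals to AP-1 moved in some places in the mutants. Of 17 factors known to act at the Fos and Jun promoters 3 fell and 0 rose in vehicle-treated mutants against wild type, with a median of -0.16, where 0.994% of all tested genes fell. These were Mef2d, an activity-dependent MADS box factor (-0.52 ± 0.12, edgeR adjusted p = 0.0402), and the SRF coactivators Mkl1 (-0.45 ± 0.10, 0.0435) and Mkl2 (-0.50 ± 0.12, 0.0444). All 3 lay close to the threshold of 0.05 and were not followed under the other settings. Mkl2 averaged 309.4 ± 10.9 CPM in vehicle-treated mutants and 437 ± 65.6 CPM in wild type. Treated mutants had lower Mkl2 (-0.57 ± 0.12) and Mef2d (-0.55 ± 0.12) than wild type, where 1.99% of all tested genes fell. Between treated and vehicle-treated mutants 0 of the 17 passed by edgeR's test or at an unadjusted p under 0.05. The 11 excitatory neuron markers had a median of -0.28 for the mutation. Of these markers 1 was called lower (0.994% of all tested genes) and 7 were lower at an unadjusted p under 0.05 (8.24% of all). In treated mutants against wild type their median was -0.25, with 3 called lower (1.99% of all). Their part in the lower factors and immediate early genes was not tested.

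Of 18 kinases and scaffolds of the MAP kinase cascade 0 passed edgeR's test for the mutation (3 lower at an unadjusted p under 0.05, as were 8.24% of all tested genes) and 0 for GSK-LSD1 in mutants (1 lower, as were 2.52% of all). Against wild type, treated mutants had lower Rps6ka3, which encodes the ERK-activated kinase RSK2 (-0.62 ± 0.11, edgeR adjusted p = 0.00648), at 47.2 ± 1.30 CPM in treated mutants and 72.8 ± 3.86 CPM in wild type. Over all tested genes 1.99% fell in this comparison. The 9 MAP kinase phosphatases, several of which are induced with Fos as feedback, had 0 passing edgeR's test in each comparison, and 0, 3 and 2 higher at an unadjusted p under 0.05 for the mutation, for GSK-LSD1 in mutants and for treated mutants against wild type. Their median was 0.31 for GSK-LSD1 in mutants, where 8 of 9 were positive and Dusp6 (0.70 ± 0.21), Dusp1 (0.99 ± 0.35) and Dusp4 (0.65 ± 0.28) had the smallest p. Over all tested genes 5.81%, 3.18% and 7.11% were higher at an unadjusted p under 0.05 in the same 3 comparisons.

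Partners and brakes of AP-1 gave few calls. Of 15 other dimer partners 13 were tested and 0 passed edgeR's test in any comparison. At an unadjusted p under 0.05 there was 1 lower, Atf7 in treated mutants against wild type (-0.57 ± 0.20), where 8.62% of all tested genes were lower. Their medians were -0.043 for the mutation, -0.011 for GSK-LSD1 in mutants and 0.0062 against wild type. Of 13 genes of AP-1 turnover and repression 0 passed edgeR's test for the mutation (2 lower at an unadjusted p under 0.05, as were 8.24% of all tested genes). For GSK-LSD1 in mutants 0 passed (0 at an unadjusted p under 0.05). Against wild type 1 fell in treated mutants, Gsk3b, a kinase that marks Jun for degradation (257.9 ± 5.15 CPM in treated mutants and 361 ± 11.2 CPM in wild type, -0.49 ± 0.10). Over all tested genes 1.99% fell in this comparison.

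Of 24 genes described elsewhere as AP-1 or FosB targets 22 were tested. By edgeR's test 0 passed for the mutation (3 at an unadjusted p under 0.05 in either direction, where 14.0% of all tested genes were) and 0 for GSK-LSD1 in mutants (2 higher, where 3.18% of all tested genes were), with medians of 0.15 and 0.11. The smallest p for GSK-LSD1 belonged to Vgf, a secreted neuropeptide precursor (0.42 ± 0.11, edgeR adjusted p = 0.336), and to Pdyn, the dynorphin precursor (0.69 ± 0.20, edgeR adjusted p = 0.581). Against wild type 1 rose in treated mutants, the intermediate filament gene Vim (33.6 ± 2.30 CPM in treated mutants and 21.9 ± 3.05 CPM in wild type, 0.61 ± 0.15, edgeR adjusted p = 0.0402). Over all tested genes 0.636% rose in this comparison. Vim is also expressed by glia, and the summed astrocyte markers were higher in treated mutants (5418 and 5488 CPM against 3993 and 4920.0 CPM in wild type). Their part in it was not tested.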

How the data were processed

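The authors deposited whole-number counts by gene symbol, 1 library per file. Per the submitters' processing notes, cutadapt, TopHat2, SAMtools, featureCounts and edgeR were used with mm10 (GRCm38). Versions, gene annotation and use of strand in counting are not stated in these sources. Per the labels' protocols, libraries were stranded and ribosome-depleted. All 54134 symbols entered the counted reads per library and the floors, and mitochondrial genes stood at 0 counts. The library totals behind CPM and the fit came from the 18705 genes kept by the filter. The tools were edgeR 4.0.16, DESeq2 1.42.0 and limma 3.58.1, run in R 4.3.3. After filterByExpr 18705 genes were scaled by TMM and fitted with edgeR's robust quasi-likelihood model of 3 groups over 6 libraries, leaving 3 residual degrees of freedom (biological variation 11.5%). Two-sided p-values were adjusted over all genes (Benjamini-Hochberg, threshold 0.05). The SE was obtained from the log2 fold change and the F statistic, and 95% intervals use the test's degrees of freedom. The p-values rest on the spread between these libraries, combined with a spread shared over all genes. For Fosb the shared part had 14.7 prior degrees of freedom against 3 residual ones, so it weighed more than the gene's own spread. Floors and within-group intervals cover counting error only. Coordinates, exonic length and GC content came from GENCODE M21 (98.4% of tested symbols matched), and promoters from RefSeq. Members and lists were chosen with earlier results of these data known. Named genes were the members, up to 4 genes per list by p, and the 3 nearest profiles per member. The fit was tested on simulated data in which each gene had the same biological variation of 11.5%. That setting does not cover genes given fewer prior degrees of freedom, such as Fos and Junb. Alternatives were other scalings, filters, tools, thresholds, an offset for GC content and length, a replicate block, and each library left out.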

Additional observations from a re-analysis of the deposited data

How the results depend on the processing

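For the mutation under vehicle, the count of members called was 1 and became 0 with library size scaling, limma-voom, a fit without the robust option and a threshold of 0.01, and 3 with no filter on low counts. By DESeq2 it was 0, but Fosb had no adjusted p there and could not be counted (log2 fold change -0.97, DESeq2 unadjusted p = 9.51e-05). With a library left out it ran from 0 to 1. Fosb kept a negative value throughout (-1.12 to -0.81) and passed in 11 of 17 alternatives that gave it an adjusted p. For GSK-LSD1 against vehicle in mutants, the count of 0 became 2 with no filter, DESeq2, limma-voom, the fit without the robust option and the replicate block, and 1 with only the 4 libraries compared (0 to 2 with a library left out). Against wild type it became 2 with no filter, limma-voom, the fit without the robust option and the replicate block, and 1 by DESeq2 (0 to 2 with a library left out). In the last 2 comparisons Fos kept its sign in all 18 alternatives and passed in 9 and 7, and Junb kept its sign and passed in 8 and 5. The cause was not tested.

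Values near 0 changed sign. For the mutation, Jun turned to 0.0156 with library size scaling, Fosl2 to 0.0303 and Jund to 0.0160 with the GC content and length offset. With a library left out, Jun ran from -0.14 to 0.0117 (above 0 without vehicle-treated mutant library 1) and Fosl2 from -0.25 to 0.0926 (above 0 without vehicle-treated mutant library 2, at 0.07, or wild-type library 1). For GSK-LSD1 in mutants, Jund turned to -0.10 with the offset and ran from -0.11 (without GSK-LSD1 library 1) to 0.22, and Fosl2 from -0.0459 (without GSK-LSD1 library 2) to 0.47. Against wild type, Jund turned to 0.0416 with library size scaling and ran from -0.22 to 0.11 (above 0 without GSK-LSD1 library 2 or wild-type library 1), and Fosl2 from -0.13 to 0.39 (below 0 without GSK-LSD1 library 2 or wild-type library 2). The cause was not tested.

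The count of all genes called for the mutation, 238, was 141 with upper quartile scaling, 35 with library size scaling, 807 with no filter, 602 by DESeq2, 137 by limma-voom, 11 without the robust option, 524 with only 4 libraries, 136 with the offset, 552 and 9 at thresholds of 0.1 and 0.01, and 6 to 656 with a library left out. For GSK-LSD1 in mutants, 20 became 106 with no filter, 35 by DESeq2, 8 at 0.01 and 10 to 83 with a library left out. Against wild type, 491 became 253 with library size scaling, 962 with no filter, 782 by DESeq2, 871 and 64 at 0.1 and 0.01, and 6 to 631 with a library left out. The replicate block gave 233, 18 and 505. Samples sharing a replicate number deviated with correlations of 0.076, -0.058 and -0.050, so the numbers were not taken as pairs. Under the block Fos and Junb passed for GSK-LSD1 in mutants (edgeR adjusted p = 0.0427 and 0.0271) and against wild type (0.0440 and 0.0320).

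Fosb, with 136 to 318 counts per library, is the member whose precision depth limits most. With 2 libraries per group and 3 residual degrees of freedom, a library such as wild-type library 1 decides calls.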
